A study of Mus musculus with 3 samples.

Results

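The 8 lipid handling genes of the splenic myeloid compartment were described here across 3 single-cell libraries. They were Apoe, Apoc2, Hpgd, Fabp4, Fabp5, Cd36, Lpl and Abca1, 8 of the 32285 genes listed. These genes had been chosen by name after Apoe and Hpgd had been seen to be lower, and Fabp4 higher, in myeloid cells of B6.SLE123, a strain prone to lupus. The difference between B6.SLE123 and control therefore chose the members, and it is given below as a description with no test. In nonclassical monocyte-like cells Apoe was 1777 CPM (a gene's share of all UMIs of the cells summed, scaled to a common total) in the control, 2081 CPM in the angiotensin II (Ang II) and 56.1 CPM in the B6.SLE123 library. Values of the 3 libraries are given in this order throughout, and Hpgd was 624, 548 and 3.92 CPM, and Fabp4 was 270, 212 and 663 CPM.

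The samples were splenocytes of mice aged 12 to 14 weeks, depleted of T cells with CD3 microbeads and sequenced by the 10x Genomics 5′ method, which tags every captured RNA with a unique molecular identifier (UMI). The C57BL/6 control library pooled male C57BL/6 mice with sham pumps, implanted for 2 weeks at 10 weeks of age, and females of that strain. The C57BL/6 Ang II library pooled male C57BL/6 mice that received Ang II, a peptide that raises blood pressure, from such pumps together with placebo or 2-HOBA. The B6.SLE123 library pooled female mice given placebo and female mice given 2-HOBA, each for 6 weeks from 7 weeks of age. B6.SLE123 mice carry the lupus susceptibility loci Sle1, Sle2 and Sle3 on the C57BL/6 background, and 2-HOBA scavenges isolevuglandins, which are reactive products of lipid oxidation. Each condition was a pool of 3 mice, each library held 2 conditions, and no hashtag was named for a condition. The effect of 2-HOBA was therefore not analysed. Values by hashtag are given as their spread and are not assigned to a condition, and control hashtags are also grouped by their share of cells with Xist, as described below. It was not stated if each hashtag stood for 1 mouse.

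Monocytes and macrophages take up lipoproteins and fatty acids, store or oxidise them, and return cholesterol to the circulation. Apolipoprotein E and the exporter ABCA1 act in that return and are induced by the liver X receptors (LXR), whereas FABP4 and CD36 are classical targets of PPARγ. In the spleen, red pulp macrophages clear aged red cells, and nonclassical monocytes are long-lived cells that patrol vessel walls. Apoe encodes a ligand of lipoprotein receptors, and Apoc2 encodes the cofactor that activates lipoprotein lipase, the product of Lpl. Hpgd encodes the dehydrogenase that inactivates prostaglandin E2. Fabp4 and Fabp5 encode intracellular chaperones of fatty acids, and Cd36 encodes a scavenger receptor that carries long-chain fatty acids.

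On GRCm38 in the GENCODE vM21 annotation, all 8 members were protein-coding. Apoe (ENSMUSG00000002985) lay at chr7:19696109-19699188 on the minus strand, and Apoc2 (ENSMUSG00000002992) at chr7:19671579-19677941 on the same strand, with 18167 bases between them. Hpgd (ENSMUSG00000031613) lay at chr8:56294585-56321043 on the plus strand and Lpl (ENSMUSG00000015568) at chr8:68880491-68907448 on the plus strand. Fabp4 (ENSMUSG00000062515) lay at chr3:10204088-10208576 on the minus strand and Fabp5 (ENSMUSG00000027533) at chr3:10012548-10016607 on the plus strand, 187480 bases apart. Cd36 (ENSMUSG00000002944) lay at chr5:17781690-17888801 and Abca1 (ENSMUSG00000015243) at chr4:53030787-53159895, both on the minus strand. Counts at the 5′ end of a transcript were measured, so the windows just before the starts of the 3 members that were lower in B6.SLE123 are shown to give their promoter context. Each runs over the 250 bases before the RefSeq start on GRCm38.p6, 5′ to 3′ on the gene's strand, with capitals for matches of a nuclear receptor half-site (AGGTCA), a PU.1 core (GAGGAA) or an E-box (CACGTG) on either strand.
Apoe, chr7:19699189-19699438, minus strand: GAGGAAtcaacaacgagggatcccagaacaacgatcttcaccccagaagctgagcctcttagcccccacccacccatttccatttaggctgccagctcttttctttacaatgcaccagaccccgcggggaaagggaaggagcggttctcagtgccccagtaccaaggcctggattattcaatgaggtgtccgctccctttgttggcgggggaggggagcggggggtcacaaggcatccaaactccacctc
Apoc2, chr7:19677942-19678191, minus strand: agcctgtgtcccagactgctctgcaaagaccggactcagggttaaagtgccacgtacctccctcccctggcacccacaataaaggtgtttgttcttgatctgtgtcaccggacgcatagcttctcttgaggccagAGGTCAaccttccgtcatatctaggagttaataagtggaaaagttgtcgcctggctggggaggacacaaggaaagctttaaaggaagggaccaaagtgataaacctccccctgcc
Hpgd, chr8:56294302-56294551, plus strand: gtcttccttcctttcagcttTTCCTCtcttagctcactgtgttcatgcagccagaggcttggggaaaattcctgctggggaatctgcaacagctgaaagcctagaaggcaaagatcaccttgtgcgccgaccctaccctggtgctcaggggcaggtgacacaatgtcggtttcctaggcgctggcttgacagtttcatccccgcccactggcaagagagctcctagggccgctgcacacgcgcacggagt
The Apoe and Hpgd windows each held 1 PU.1 core match, the latter on the opposite strand, and the Apoc2 window held 1 half-site. The same windows of Cd36 and Abca1 held 1 half-site and 1 E-box. Over 32851 RefSeq promoter windows, 14.0% held the half-site, 23.3% the PU.1 core and 6.02% the E-box, so a match in a member's window is common and is only a description. The RefSeq starts of Hpgd and Cd36 differed from the GENCODE starts given above. The Cd36 window, chr5:17835897-17836146, lay inside the GENCODE gene.

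Control, Ang II and B6.SLE123 held 18218, 16062 and 20691 barcodes with 44146350, 59043555 and 63516694 gene UMIs. After limits on genes and mitochondrial share and removal of barcodes with several hashtags, 15700, 14023 and 16708 cells were kept. The libraries shared 415 to 496 barcode sequences pairwise, or 2.58% to 2.95% of the smaller library. Myeloid cells were gated with markers that did not include a member, which left 609, 382 and 1109 cells with a median of 3281, 4799 and 2105 UMIs. Nonclassical monocyte-like cells numbered 227, 108 and 424, and classical monocyte-like cells 213, 100 and 200. Red pulp macrophage-like cells numbered 23, 35 and 57 and were shallow, with a median of 763 to 1002 UMIs. C1q DC-like cells, marked by complement C1q genes, numbered 5, 10 and 179. All 6 nonclassical markers were detected in the nonclassical gate of every library, at a summed 3449, 2765 and 3332 CPM, and all 5 classical markers in the classical gate at 5286, 4820 and 6157 CPM. In the red pulp macrophage gate all 6 of its markers were detected at 15349, 12902 and 14852 CPM, beside C1q markers at 11477, 13957 and 13575 CPM. In the B6.SLE123 library, hashtag C0303 held 480 of the 1109 myeloid cells, 191 of the 424 nonclassical cells and 144 of the 179 C1q DC-like cells.

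Sex was not matched between the libraries. In the control library 0.165% to 0.386% of cells with hashtags C0301 to C0303 had a UMI of Xist, against 49.2% to 51.7% with C0304 to C0306. In the Ang II library the share was 0%, and in the B6.SLE123 library it was 46.6% to 54.9%. Sex and treatment or strain cannot be told apart when whole libraries are compared. Values against only the 3 control hashtags of like Xist share, a comparison added after the data were seen, are therefore given. They cover every member over all myeloid cells and some of the class values. Within the control library only the males were described with sham pumps. Sex and pump surgery therefore cannot be told apart between its hashtags of low and high Xist share. Because each group was 1 library, no test was possible. Intervals are exact 95% Poisson intervals for a CPM, exact conditional ones for a log2 ratio of 2 libraries, and exact Clopper-Pearson ones for a share of cells, and all cover counting error only. A gene was called 2-fold lower or higher at a log2 ratio of at least 1 in size with at least 50 UMIs over both libraries. Both ratios below share the control library, so they are not independent of each other.

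Apoe was lower in the B6.SLE123 library in both monocyte classes. Over all myeloid cells Apoe was at 1022 CPM (980 to 1065) in control, 1037 CPM (992 to 1083) in Ang II and 119 CPM (107 to 132) in B6.SLE123 cells, from 2211, 2006 and 360 UMIs. By hashtag the lowest, median and highest values were 739, 1114 and 1358 CPM in the control library, 720, 1033 and 1403 CPM in the Ang II library, and 69.1, 102 and 345 CPM in the B6.SLE123 library. Every B6.SLE123 hashtag thus lay below every hashtag of the other libraries. Of all 7819 genes tested, 1.24% lay below every control hashtag in this way, and the share for both other libraries was not computed. The log2 ratio of B6.SLE123 to control was -3.11 (-3.27 to -2.94), and that of Ang II to control was 0.02. Against the control hashtags of like Xist share these became -2.79 (-2.97 to -2.62) and -0.32 (-0.43 to -0.22).

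The difference in Apoe was larger in nonclassical monocyte-like cells. Its level there was 1777 CPM (1671 to 1889) in control, 2081 CPM (1945 to 2224) in Ang II and 56.1 CPM (40.6 to 75.6) in B6.SLE123, or 1040, 873 and 43 UMIs. Hashtags ranged from 967 to 2591 CPM around a median of 1885 in the control library and from 1428 to 2523 CPM around 2095 over the 5 Ang II hashtags with at least 10 such cells. In the B6.SLE123 library they ranged from 0 to 237 CPM around 67.8, without overlap with either. Of 3832 genes tested in this class, 0.835% lay below every control hashtag, and the share for both libraries was not computed. The ratio of B6.SLE123 to control was -4.99 (-5.46 to -4.55), a 31.7-fold difference, which was -4.38 without B6.SLE123 hashtag C0303 and -4.40 (-4.89 to -3.94) against control hashtags C0304 to C0306. Within the control library those 3 hashtags were at 1355, 967 and 1492 CPM, and C0301 to C0303 at 2591, 2506 and 2277 CPM. The control level itself thus differed between hashtags of high and low Xist share, where sex and sham pumps cannot be told apart. The Ang II ratio was 0.23 (0.10 to 0.36) with all control hashtags and -0.27 (-0.42 to -0.12) against C0301 to C0303, so its direction depended on which control hashtags were used.

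In classical monocyte-like cells Apoe stood at 976, 1206 and 93.4 CPM by library, and the ratio of B6.SLE123 to control was -3.39 (-3.72 to -3.07). The 6 B6.SLE123 hashtags ranged from 18.1 to 365 CPM around 130, against 766 to 1495 CPM around 1159 in the control library. In cDC1-like cells Apoe was 101, 57.7 and 0 CPM, at least 15.2-fold lower in B6.SLE123 when a floor of 3 UMIs stood for the library at 0. In cDC2-like cells it was 188, 95.6 and 17.9 CPM, and the B6.SLE123 ratio was -3.39 (-5.76 to -1.69) from 3 against 26 UMIs. C1q DC-like cells of B6.SLE123 had a higher summed Apoe level than its monocytes, at 293 CPM from 120 UMIs, and held 33.3% of its myeloid Apoe UMIs. That level was uneven, as only 22 of these 179 cells (12.3%) had an Apoe UMI, beside 12% of its classical cells. The 2 hashtags with at least 10 C1q DC-like cells stood at 164 and 1155 CPM. In control and Ang II the 5 and 10 C1q DC-like cells were too few to compare. Red pulp macrophage-like cells differed less than the monocytes, with 2570, 4341 and 1693 CPM from 75, 181 and 106 UMIs and a B6.SLE123 ratio of -0.60 (-1.04 to -0.16). Nonclassical cells thus held 47.0%, 43.5% and 11.9% of the myeloid Apoe UMIs of the 3 libraries.

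Apoc2, which lies on the same stretch of chromosome 7 as Apoe, was lower in B6.SLE123 by a smaller amount and was found in monocytes. In all myeloid cells together it was at 302, 155 and 56.1 CPM by library, from 654, 300 and 170 UMIs. Hashtags ranged from 200 to 465 CPM around 245 in the control library, from 83.7 to 210 CPM around 164 in the Ang II library and from 25.8 to 175 CPM around 61.0 in the B6.SLE123 library. The B6.SLE123 hashtags lay below all control hashtags, as for 1.24% of all genes tested, but overlapped the Ang II ones. The highest of them, C0301, stood apart from the other 5. The B6.SLE123 ratio to control was -2.43 (-2.68 to -2.18) on the log2 scale, beside an Ang II ratio of -0.96 (-1.16 to -0.76). Against control hashtags of like Xist share the B6.SLE123 ratio was -2.30 (-2.57 to -2.03), and the Ang II ratio was -1.13 (-1.36 to -0.90), past the 2-fold line that it did not reach with all 6. In nonclassical cells Apoc2 was at 672, 465 and 104 CPM, with a B6.SLE123 ratio of -2.69 (-3.05 to -2.34), and in classical cells at 267, 147 and 96.6 CPM, with a ratio of -1.47 (-1.83 to -1.12). No UMI of Apoc2 was counted in red pulp macrophage-like cells of any library or in C1q DC-like cells of the B6.SLE123 library, in contrast to Apoe.

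**Figure D1:**
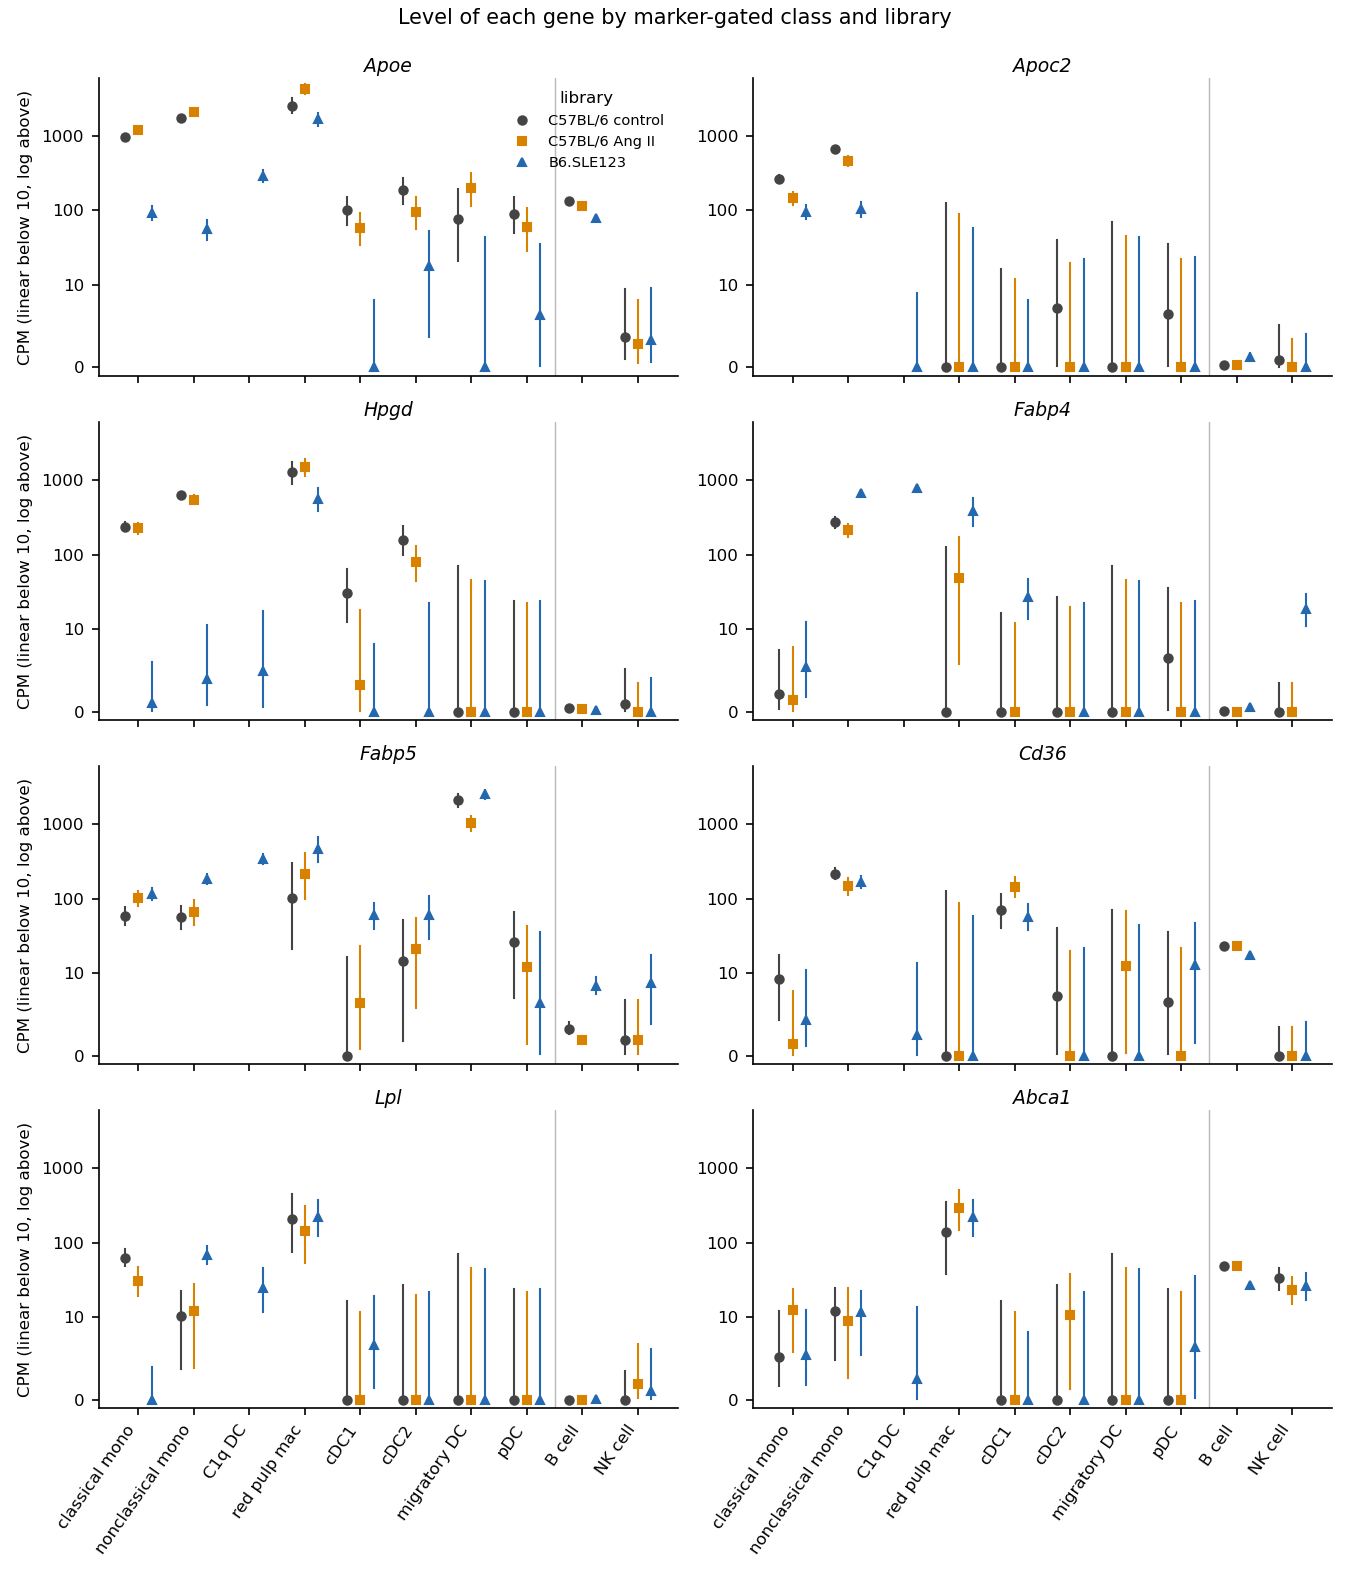
CPM of each member (vertical axis, logarithmic above 10 CPM) by marker-gated class (horizontal axis), colored by library, with exact 95% intervals of counting error. In nonclassical monocyte-like cells Apoe was at 1777, 2081 and 56.1 CPM and Hpgd at 624, 548 and 3.92 CPM, whereas in red pulp macrophage-like cells the libraries lay closer, at 2570, 4341 and 1693 CPM for Apoe.

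Hpgd was nearly absent from the monocytes of the B6.SLE123 library and remained in its red pulp macrophage-like cells. Among all myeloid cells it was at 307, 247 and 13.5 CPM from 664, 478 and 41 UMIs. Hashtags ranged from 223 to 449 CPM around 326 in the control library and from 191 to 401 CPM around 226 in the Ang II library. In the B6.SLE123 library they ranged from 0 to 36.3 CPM around 20.4, again without overlap, where 1.24% of all genes lay below every control hashtag. Relative to control the B6.SLE123 ratio was -4.50 (-5.00 to -4.05), and the Ang II ratio -0.31. With control hashtags of like Xist share they were -4.45 (-4.95 to -3.98) and -0.36 (-0.57 to -0.14). In nonclassical cells 365, 230 and 3 UMIs of Hpgd were counted, and 3 of the 6 B6.SLE123 hashtags were at 0. The nonclassical hashtags of the control library ranged from 475 to 912 CPM and those of B6.SLE123 from 0 to 10.9 CPM. The resulting ratio was -7.32 (-9.60 to -5.76), beside an Ang II ratio of -0.19 (-0.43 to 0.06), and was -7.14 (-9.43 to -5.57) against control hashtags C0304 to C0306. In classical cells 230, 161 and 1 UMIs were counted, and 5 of the 6 B6.SLE123 hashtags were at 0. The interval of the classical ratio, -7.79 (-13.10 to -5.30), is wide for that reason.

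Red pulp macrophage-like cells carried Hpgd at 1268, 1487 and 559 CPM from 37, 62 and 35 UMIs, with a B6.SLE123 ratio of -1.18 (-1.89 to -0.47) and an Ang II ratio of 0.23. They held 85.4% of the myeloid Hpgd UMIs of the B6.SLE123 library, or 35 of 41, against 5.57% in control and 13% in Ang II. Hpgd was also seen in cDC2-like cells at 159, 79.7 and 0 CPM, at least 8.89-fold lower in B6.SLE123 by the same floor. Few cells stand behind the red pulp macrophage values, and only 1 control hashtag held 10 or more of them. Erythroid transcripts, for which 4 to 6 of 6 markers were detected, summed to 51151, 2806 and 7251 CPM in these cells, and their part in the ratios was not tested. Over all control myeloid cells, 1493 erythroid UMIs lay in hashtag C0304 and at most 4 in any other hashtag.

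Fabp4 was confined largely to nonclassical monocyte-like cells in the control and Ang II libraries and was found more widely in B6.SLE123. Over all myeloid cells it was at 74.4, 47.6 and 286 CPM from 161, 92 and 868 UMIs. Hashtags ranged from 11 to 111 CPM around 68.9 in the control library, from 23.9 to 74.9 CPM around 52.7 in the Ang II library and from 32.1 to 437 CPM around 178 in the B6.SLE123 library. The groups overlapped, in contrast to Apoe and Hpgd. Fabp4 had a B6.SLE123 ratio of 1.94 (1.70 to 2.20) and an Ang II ratio of -0.65 (-1.03 to -0.27). Leaving out hashtag C0303 of B6.SLE123 gave 1.12 for the former, and weighting the classes as in the control library gave 1.35. The ratios against control hashtags of like Xist share were 1.96 (1.65 to 2.29) and -0.66 (-1.13 to -0.19). C1q DC-like cells, nearly all of which were from B6.SLE123, had 779 CPM of Fabp4 and held 36.8% of the B6.SLE123 myeloid Fabp4 UMIs.

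Within nonclassical cells Fabp4 was at 270, 212 and 663 CPM from 158, 89 and 508 UMIs. Hashtags ranged from 28.8 to 345 CPM around 258 in the control library and from 194 to 809 CPM around 608 in the B6.SLE123 library, and the 2 ranges overlapped. The B6.SLE123 ratio was 1.30 (1.04 to 1.56), and that of Ang II was -0.35 (-0.74 to 0.04). The B6.SLE123 value against control hashtags C0304 to C0306 was 1.27 (0.94 to 1.62). Nonclassical cells held 98.1% and 96.7% of the myeloid Fabp4 UMIs in the control and Ang II libraries and 58.5% in B6.SLE123. Classical cells had almost none, at 2.06, 1.40 and 5.37 CPM. In red pulp macrophage-like cells 0, 2 and 24 UMIs were counted, at least 3.73-fold higher in B6.SLE123 than in control. The adipocyte markers Adipoq, Plin1, Cidec and Cfd were at 0 in the myeloid cells of all 3 libraries. Retn was the remaining marker of that list, which summed to 1 UMI in B6.SLE123 hashtag C0302 and to 0 in every other hashtag.

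Fabp5 was highest in migratory DC-like cells and was higher in B6.SLE123 in monocytes. Over all myeloid cells it was at 97.0, 104 and 221 CPM from 210, 202 and 670 UMIs, with a B6.SLE123 ratio of 1.19 (0.96 to 1.42) and an Ang II ratio of 0.11. Hashtags ranged from 40.4 to 277 CPM in the control library, from 38 to 225 CPM in the Ang II library and from 120 to 299 CPM in the B6.SLE123 library, so the libraries overlapped. When the upper and lower limits on detected genes were read as limits on UMIs, which removed the deepest cells, the B6.SLE123 ratio over all myeloid cells was -0.23. Control hashtags of like Xist share gave a B6.SLE123 ratio of 1.11 (0.83 to 1.40) and an Ang II ratio of 0.21 (-0.16 to 0.59). In nonclassical cells Fabp5 was at 56.4, 66.7 and 184 CPM with a B6.SLE123 ratio of 1.71 (1.15 to 2.30) that was 2.41 (1.52 to 3.44) against control hashtags C0304 to C0306, and in classical cells at 58.8, 102 and 116 CPM with a B6.SLE123 ratio of 0.98 (0.50 to 1.47) and an Ang II ratio of 0.79 (0.27 to 1.32). In migratory DC-like cells it was at 2085, 1028 and 2527 CPM, and these few cells held 51.9%, 41.1% and 31.9% of the myeloid Fabp5 UMIs. Their Ang II ratio was -1.02 (-1.45 to -0.59), but only -0.33 when the class was taken from clusters. Fabp5 differed in this from Fabp4, which had no UMI in migratory DC-like cells of any library.

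**Figure D2:**
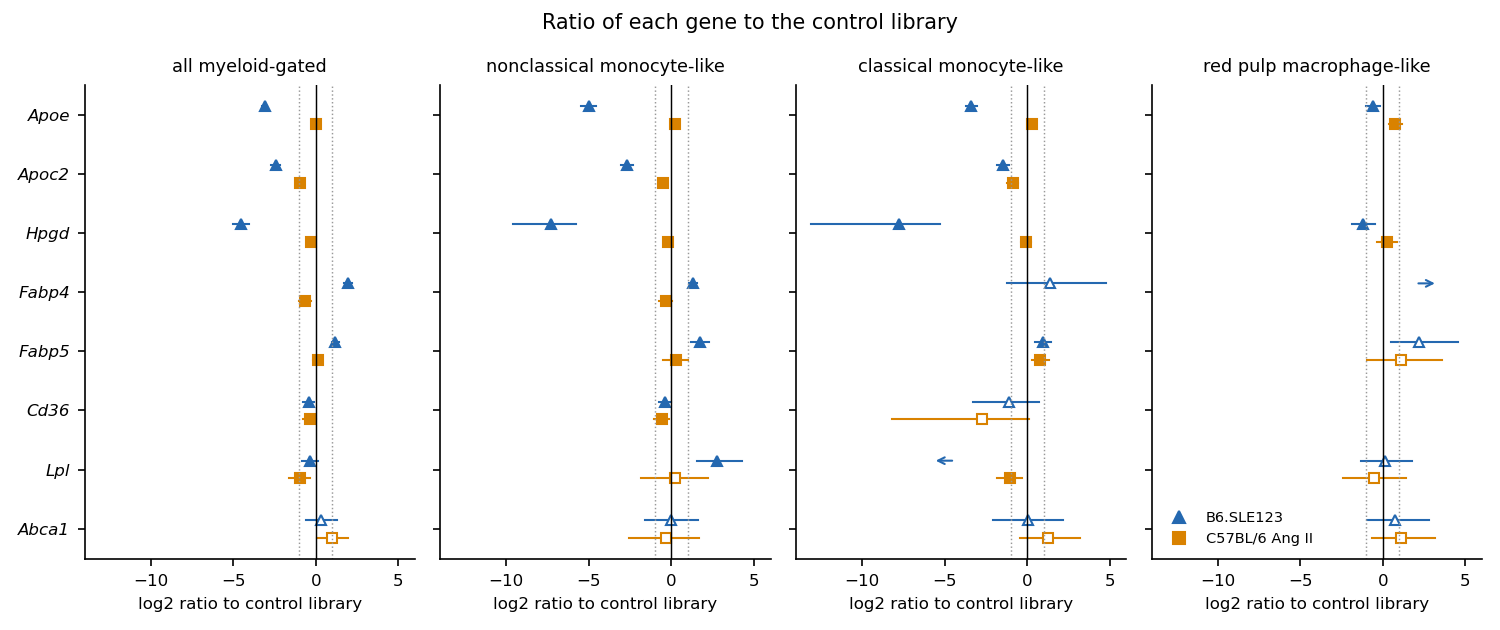
Log2 ratio of each member (vertical axis) to the control library (horizontal axis) for the B6.SLE123 and Ang II libraries in 4 gates, with exact 95% intervals of counting error. Open symbols have under 50 UMIs over both libraries, arrows are lower bounds on a difference and dotted lines mark 2-fold. The B6.SLE123 values of Apoe and Hpgd in nonclassical cells lay at -4.99 and -7.32, and the Ang II values at 0.23 and -0.19.

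Cd36 did not pass 2-fold between the libraries over all myeloid or nonclassical cells. The myeloid level was 72.5, 55.8 and 53.4 CPM, from 157, 108 and 162 UMIs, with a B6.SLE123 ratio of -0.44 (-0.77 to -0.12) and an Ang II ratio of -0.38, neither of them past 2-fold. The hashtag ranges of 51.8 to 101, 39.9 to 67.6 and 36.3 to 91.7 CPM overlapped. With control hashtags of like Xist share the ratios were -0.63 (-1.0 to -0.25) and -0.08 (-0.56 to 0.41). In nonclassical cells Cd36 was at 217, 145 and 168 CPM, with ratios of -0.37 (-0.73 to 0.00) and -0.58 (-1.04 to -0.13). With control hashtags of like Xist share these became -0.57 (-0.98 to -0.14) and -0.26 (-0.84 to 0.32), so the Ang II interval then included 0. Its UMIs lay in nonclassical cells for 80.9%, 56.5% and 79.6% and in cDC1-like cells for 10.2%, 41.7% and 16.0% of the myeloid total. In cDC1-like cells the level was 70.1, 144 and 57.3 CPM, and the Ang II ratio was 1.04 (0.19 to 1.96). Fabp4, by contrast, had a B6.SLE123 ratio of 1.30 in nonclassical cells. The reason for the contrast was not tested.

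Lpl differed between libraries in opposite directions in the 2 monocyte classes. In classical cells it was at 62.9, 30.7 and 0 CPM from 61, 22 and 0 UMIs, and all 6 B6.SLE123 hashtags were at 0, which is at least 19.5-fold lower than control. In nonclassical cells it was at 10.3, 11.9 and 69.2 CPM from 6, 5 and 53 UMIs, a B6.SLE123 ratio of 2.75 (1.54 to 4.26), and 4 of the 6 control hashtags were at 0. Lpl UMIs of myeloid cells accordingly lay in classical cells for 83.6% and 66.7% in the control and Ang II libraries and for 0% in B6.SLE123, where 66.2% lay in nonclassical cells. For myeloid cells as a whole these directions met in a level of 33.7, 17.1 and 26.4 CPM and a B6.SLE123 ratio of -0.35 (-0.83 to 0.12), which turned to 0.47 (-0.21 to 1.21) against control hashtags C0304 to C0306. In the control library, classical Lpl was at 124, 107 and 170 CPM in hashtags C0301 to C0303 and at 21.9, 32.3 and 18.1 CPM in C0304 to C0306. The classical Ang II ratio was -1.03 (-1.81 to -0.31) against all control hashtags and -1.95 (-2.75 to -1.18) against C0301 to C0303. The same choice moved the Ang II ratio over all myeloid cells from -0.98 (-1.62 to -0.37) to -1.63 (-2.31 to -0.96). Against C0304 to C0306 the B6.SLE123 classical level of 0 stood beside 16 UMIs, and the upper end of the interval of the log2 ratio was -2.65.

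Abca1 was too sparse in myeloid cells for a call. It was at 7.86, 15.5 and 9.90 CPM from 17, 30 and 30 UMIs over all myeloid cells and at 12.0, 9.54 and 11.7 CPM in nonclassical cells. Among classes of at least 20 cells its level was highest in red pulp macrophage-like cells, at 137, 288 and 224 CPM from 4, 12 and 14 UMIs. The ratio to control over all myeloid cells was 0.33 (-0.57 to 1.28) for B6.SLE123, not a detectable difference at this depth. For Ang II it was 0.98 (0.08 to 1.93), an interval just above 0.

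Shares of cells with a UMI were lower in B6.SLE123 than in either other library for Apoe and Hpgd and higher for Fabp4, thinned or not, whereas the order of control and Ang II changed with the measure. To remove the effect of unequal depth, nonclassical cells were thinned to 1000 UMIs each, which left out 10, 3 and 82 shallower cells by library. After thinning, Apoe was detected in 66.4%, 57.1% and 3.80% of cells, against 78.4%, 80.6% and 4.72% before it. Hpgd was detected in 35.9%, 32.4% and 0.292% (48.9%, 53.7% and 0.708% unthinned), and Fabp4 in 25.3%, 22.9% and 43.0% (37.0%, 38.9% and 55.2% unthinned). NK cell-like cells of B6.SLE123, taken as a type that should lack these genes, had thinned shares of 0.437% for Apoe, 0 of 458 cells (0% to 0.802%) for Hpgd and 0.437% for Fabp4, and those of control 0.192%, 0.192% and 0 of 521 cells. The median depth of these NK cell-like cells was 1311 and 1685 UMIs, beside 2130, 3380.5 and 1473.5 UMIs in the nonclassical cells. The thinned share of Hpgd in B6.SLE123 nonclassical cells was within this background. That of Apoe was above it, but B cell-like cells of the same library had 3.62% for Apoe, close to the 3.80% of nonclassical cells. Which cell type gives the background was not tested.

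Detection of several members in the same cell was counted in nonclassical monocyte-like cells. Apoe and Hpgd were both detected in 41.9% and 47.2% of nonclassical cells of the control and Ang II libraries and in 0 of 424 in B6.SLE123, for which the exact interval reaches 0.866%, where only 0.708% had Hpgd at all. At least 1 of Apoe, Hpgd and Apoc2 was found in 89.4%, 89.8% and 14.9% of cells. Fabp4 was detected without any of those 3 in 3.08%, 0.926% and 48.6% of cells. Whether these genes occur together more or less often than their single shares give was not tested. These shares were not thinned, and the B6.SLE123 cells were the shallowest.

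**Figure D3:**
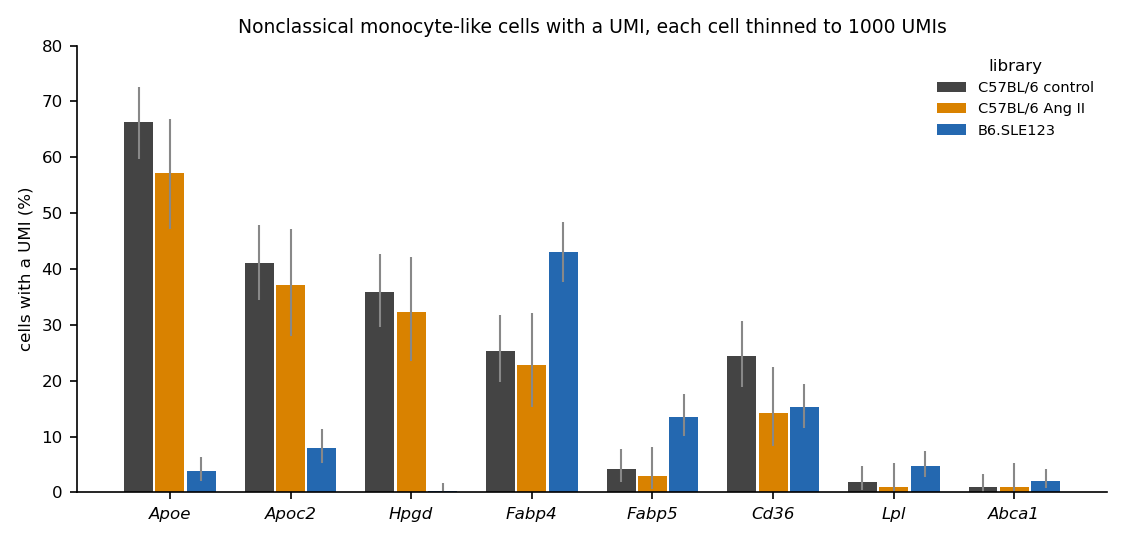
Percent of nonclassical monocyte-like cells with at least 1 UMI of each member (vertical axis), colored by library, after each cell was thinned to 1000 UMIs, with exact Clopper-Pearson 95% intervals. Apoe was found in 66.4%, 57.1% and 3.80%, whereas Fabp4 was found in 25.3%, 22.9% and 43.0%.

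Nonclassical cells of the libraries fell into different clusters, which were made without the members. Cluster 0 held 71.8% and 72.2% of them in the control and Ang II libraries and 8.73% in B6.SLE123, and cluster 9 held 73.1% of those of B6.SLE123 and 7.93% of those of control. The nonclassical markers Ace, Ear2, Treml4, Cd300e, Adgre4 and Eno3 were present in both, from 349 to 1082 CPM in cluster 0 and from 389 to 1126 CPM in cluster 9. Within cluster 0, where only 37 B6.SLE123 cells lay, Apoe was at 1975 CPM in control and 159 CPM in B6.SLE123, a log2 ratio of -3.63 (-4.64 to -2.79). Hpgd had 264 UMIs in control and 1 in B6.SLE123 there, with a ratio of -5.55 (-10.86 to -3.06). Apoc2 in cluster 0 was at 850 and 463 CPM, with a ratio of -0.88, no longer past 2-fold, and Fabp4 at 370 and 650 CPM, with 0.81. Within cluster 9, which held 18 control cells, the ratios were -6.64 for Apoe, -7.80 for Hpgd, -2.90 for Apoc2 and 1.35 for Fabp4. Cd36 stood at -0.04 in cluster 0 and -1.04 (-1.91 to -0.04) in cluster 9. Lpl was at 1.49 (-1.13 to 3.72) in cluster 0, from 3 against 6 UMIs, below the 2.75 of all nonclassical cells, and had 49 UMIs in B6.SLE123 and 0 in control in cluster 9. Lower Apoe and Hpgd were thus also present between cells of the same cluster.

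Transcripts of other cell types were measured in the same gates. Erythroid markers, of which 4 to 6 of 6 were detected, summed to 692, 75.0 and 2189 CPM over all myeloid cells. In nonclassical cells they summed to 3.42, 2.38 and 403 CPM with 1 to 5 of 6 detected, and in classical cells to 2.06, 29.3 and 6077 CPM. These transcripts were uneven between hashtags. Over B6.SLE123 myeloid cells, 5661 erythroid UMIs lay in hashtag C0304 and 957 in C0303, against 1 to 5 in each other hashtag. Their part in the B6.SLE123 differences was not tested. B cell-like cells had Apoe at 136, 114 and 78.8 CPM, which is above the B6.SLE123 level in nonclassical cells, and NK cell-like cells had 3.70, 2.78 and 3.29 CPM. When the B cell-like level was subtracted from both libraries, the myeloid B6.SLE123 ratio of Apoe was -4.47. The NK cell-like level was far lower, and which of these levels is the background of myeloid cells was not tested.

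**Figure D4:**
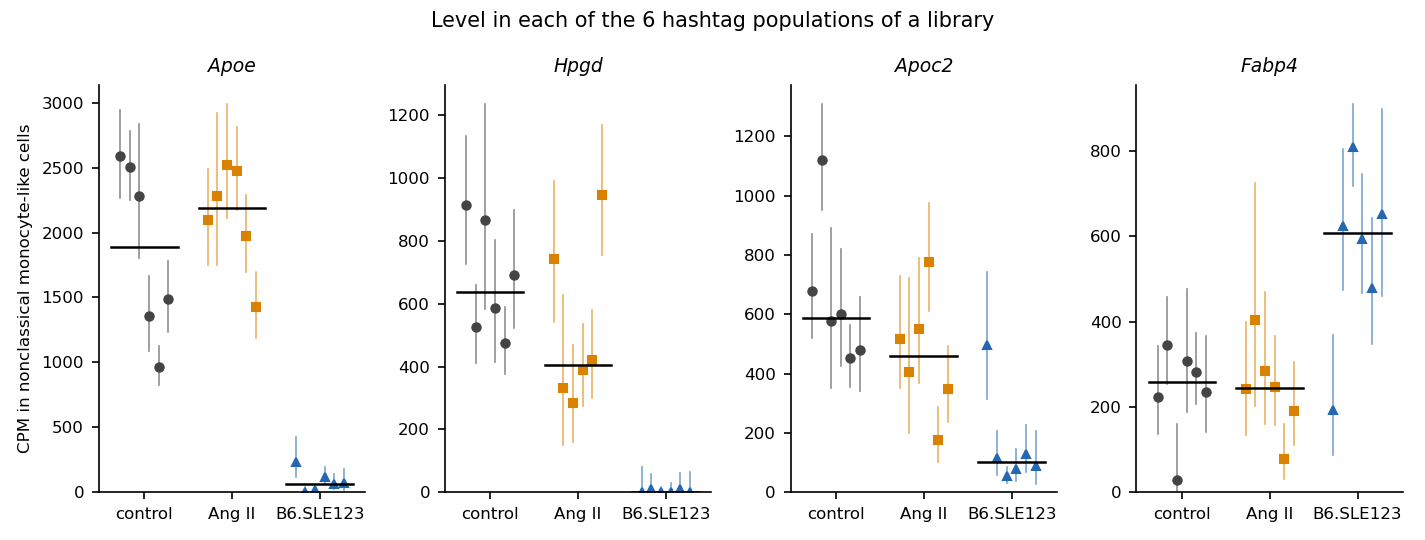
CPM of Apoe, Hpgd, Apoc2 and Fabp4 in nonclassical monocyte-like cells (vertical axis) for each hashtag of the 3 libraries (horizontal axis). Points carry exact 95% intervals, lines are medians, and for Apoe the B6.SLE123 hashtags reached at most 237 CPM and the control hashtags started at 967 CPM, while for Fabp4 the ranges of 28.8 to 345 and 194 to 809 CPM overlapped.

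Counted over the members, 3 of 7 with enough UMIs were 2-fold lower and 2 of 7 were 2-fold higher in all B6.SLE123 myeloid cells, with a median log2 ratio of -0.44 against 0.04 over all 7819 genes. Of all genes tested, 1.29% were 2-fold lower and 3.53% 2-fold higher. In nonclassical cells 3 of 7 were lower (Apoe, Apoc2 and Hpgd) and 3 higher (Fabp4, Fabp5 and Lpl), where 0.966% and 2.66% of 3832 genes were, and the medians were -0.37 and 0.06. Hpgd was the lowest and Apoe the second lowest of those 3832 ratios, and Apoc2 the fifth lowest. In classical cells 4 of 5 were lower (Apoe, Apoc2, Hpgd and Lpl) and 0 higher, where 1.15% and 3.12% of 4682 genes were, and the medians were -3.39 and 0.03. In red pulp macrophage-like cells 1 of 2 tested members was lower (Hpgd) and 0 were higher, where 3.77% and 4.91% of 265 genes were. Every hashtag of B6.SLE123 lay below every control hashtag for 3 members over all myeloid cells and for 2 in nonclassical cells, and for 1.24% and 0.835% of genes. No member lay above in this way in either gate, against 1.36% and 1.02% of genes. As these members were chosen on this contrast, nothing is read from these counts.

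Under Ang II no member of 7 was called over all myeloid cells, with a median log2 ratio of -0.38 against 0.01 over all genes, where 0.474% of 7168 genes were 2-fold lower and 1.02% higher. Apoc2 and Lpl lay close to the 2-fold line at -0.96 and -0.98, and 0 to 2 members were lower under other settings. In nonclassical cells 0 of 6 members were called in either direction, where 0.997% of 3009 genes were lower and 1.03% higher, with medians of -0.27 and 0.00. In classical cells 1 of 5, Lpl, was lower and 0 were higher, where 0.53% and 1.01% of 4339 genes were. With so few members, these shares cannot be set apart from those over all genes.

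Other genes of lipid metabolism, taken in 8 lists that leave out the members, mostly stayed within 2-fold in all B6.SLE123 myeloid cells. None of the 10 apolipoprotein and lipoprotein receptor genes, the 13 sterol synthesis genes, the 11 fatty acid genes, the 11 lipid droplet and lipase genes or the 8 lipid-associated macrophage genes with enough UMIs was 2-fold lower or higher, with medians of -0.31, -0.37, 0.05, -0.08 and 0.33 against 0.04 over all genes. Of the 15 genes of cholesterol efflux and LXR targets, 1 was higher, Nr1h3, which encodes LXRα, at 82.8 against 14.3 CPM in control with a log2 ratio of 2.53 (1.99 to 3.12). Of the 8 PPAR-related genes with enough UMIs 2 were higher and 0 lower. Pparg, which encodes PPARγ, was 1 of them, at 78.2 against 22.6 CPM (1.79, 1.34 to 2.26). Of 11 prostaglandin and leukotriene genes, 1 was higher, the prostaglandin D synthase gene Hpgds, at 24.4 against 5.55 CPM (2.14, 1.25 to 3.15). Abcg1 at 0.33 and Lrp1 and Msr1 at -0.72 and -0.87 were not past 2-fold.

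In nonclassical cells fewer listed genes had enough UMIs, and of 4 prostaglandin and leukotriene genes none passed 2-fold. Of 3 sterol synthesis genes 1 was 2-fold lower in B6.SLE123, and no other list held a gene 2-fold lower there. Nr1h3 was at 75.7 against 25.6 CPM (1.56), Pparg at 170 against 75.2 CPM (1.17), and the fatty acid oxidation gene Acadl at 62.6 against 29.1 CPM (1.11). Under Ang II, G0s2, an inhibitor of triglyceride lipase, was the only listed gene past 2-fold over all myeloid cells, at 18.1 against 44.4 CPM (-1.29, -1.90 to -0.72). In nonclassical cells it was at 78.7 against 161 CPM (-1.03), beside Acaa2, of fatty acid oxidation, at 33.4 against 71.8 CPM (-1.10) and Fdps, of sterol synthesis, at 110 against 42.7 CPM (1.36).

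The genes whose levels over 22 class-by-library groups were most like those of a member were found among 4734 genes, by Pearson's r of log2(CPM + 10), with no test, since groups of 1 library share its depth and cells. Apoe was closest to Hpgd (r = 0.887), followed by Ipmk (0.881) and Abcc5 (0.814), and Hpgd was closest to Apoe, Adgre1 (0.829) and Lrp1 (0.823). Apoc2 was closest to Thbd (0.962), Nfe2 (0.926) and Cd300lb (0.912), and its r with Apoe was 0.439. Fabp4 was closest to Cd300ld3 (0.914), Pparg (0.900) and Fcgr4 (0.892), and its r with Fabp5 was 0.230. Fabp5 was closest to Rap2b (0.924), Cd63 (0.877) and Cox5a (0.863), and Cd36 had an r of 0.710 with Havcr2 and 0.708 with S1pr5. Lpl and Abca1 had under 200 UMIs and were not compared.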

How the data were processed

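The deposited values were raw UMI counts for genes and hashtags by barcode, produced by the authors with Cell Ranger 6.0.0 on mm10 per the submitters' processing notes and file headers. All else was computed from these counts. Gene positions are from GENCODE vM21 and promoters from RefSeq, both on GRCm38. The members and lists were chosen with earlier results of these data known, and all 8 members were named whatever their values. Of the listed genes past 2-fold and the 3 most alike genes of each member, which were to be named too, some are not reported here. Barcodes with over 200 and under 3500 genes and under 15% mitochondrial UMIs were kept. Barcodes with several hashtags (13.5%, 11.4% and 18.0%) were removed as doublets, whereas doublets within a hashtag could not be seen.

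Cells were gated as myeloid at 4000 CPM of summed pan-myeloid markers with at least 2 distinct ones, below limits for B (2000), plasma (5000), T (2000), NK (3000), neutrophil (20000) and basophil (3000 CPM) markers, and were given a class by 2 distinct class markers. The markers include no member, and the limits were set after the data were seen. UMIs were summed per class and library and divided by the total. No test was possible with 1 library a group. The alternative classes came from Leiden clustering without the members (resolution 0.8 for all cells and 1 for myeloid cells, 2000 variable genes, 30 components, 20 neighbours, seed 7). On simulated counts with 200 changed genes of 7819 in all myeloid cells and of 3832 in nonclassical cells, intervals covered 95.8% and 95.7% of true ratios and 99.95% and 99.8% of 4-fold changes were called, over 20 simulations. These counts were Poisson draws without spread between cells, hashtags or mice, so such coverage was built in. The simulations therefore check the computation only and cannot show how the intervals hold for differences between mice. Alternatives were other limits, gates and scalings (TMM and median-of-ratios), each hashtag left out, other class weights, control cells with Xist, and subtraction of the B cell level. Python 3.11.15, numpy 2.4.6, scipy 1.17.1, pandas 2.3.3, scanpy 1.11.5, matplotlib 3.10.9 and, for TMM factors only, edgeR 4.0.16 in R 4.3.3 were used.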

Additional observations from a re-analysis of the deposited data

Results flagged for a closer look

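In 34 groups of 6 hashtags, 5 had a hashtag whose gap to the nearest other divided by the group's range exceeded Dixon's 95% critical value, and chance alone flags about 1 group in 20. Apoc2 was at 175 CPM in B6.SLE123 hashtag C0301 over all myeloid cells, from 49 UMIs in 97 cells, with the next at 67.6 CPM. The same hashtag was at 496 CPM in nonclassical monocyte-like cells, from 23 UMIs in 29 cells, with the next at 131 CPM. Apoc2 was at 1120 CPM in control hashtag C0302 in nonclassical cells, from 156 UMIs in 58 cells, with the next at 678 CPM. Hpgd was at 401 CPM in Ang II hashtag C0306 over all myeloid cells, from 132 UMIs in 62 cells, with the next at 235 CPM. Cd36 was at 311 CPM in control hashtag C0305 in nonclassical cells, from 53 UMIs in 58 cells, with the next at 202 CPM.

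Lpl went in opposite directions in the monocyte classes between B6.SLE123 and control, with a log2 ratio of 2.75 in nonclassical cells and a level at least 19.5-fold lower in classical cells. That difference was not tested.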

How the results depend on the processing

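No paired analysis was possible because each group was 1 library, and hashtag numbers were not tied to a condition. Over all myeloid cells, 3 members were lower in B6.SLE123 in all 22 alternatives, and none was higher under Ang II in any of them. The count of members higher in B6.SLE123 was 2 and became 1 without control hashtag C0305 and 1 with control class weights. The count lower under Ang II was 0 and became 1 with limits read as UMIs, with Leiden clusters, with TMM scaling, with the median over hashtags, without Ang II hashtag C0301 or C0306 and without control hashtag C0301 or C0305. It became 2 with median-of-ratios scaling, without Ang II hashtag C0303 or C0304 and without control hashtag C0304 or C0306. Apoc2 and Lpl lay at -0.96 and -0.98 in the main setting, and the scalings moved ratios by 0.03 to 0.04. The ratio of Fabp5 in B6.SLE123 reversed to -0.23 with limits read as UMIs, which also gave 1.29 for Fabp4 and 1.12 for Lpl and, under Ang II, -1.86 for Fabp5, the member then called, and 0.66 for Lpl.

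With only control cells in which Xist was detected, which are the deeper ones, the B6.SLE123 ratios were -2.50 for Apoe, -1.80 for Apoc2, 3.20 for Fabp4 and 0.31 for Lpl, and the Ang II ratios were 0.62 for Apoe, -0.33 for Apoc2, 0.61 for Fabp4 and -0.32 for Lpl. Without B6.SLE123 hashtag C0303, Hpgd was at -3.90 and Fabp4 at 1.12, and with the median over hashtags Fabp5 was at 1.87. With a minimum of 10 or 200 UMIs in place of 50, the share of all genes 2-fold lower in B6.SLE123 was 3.69% or 0.836% and the share higher 7.58% or 2.51%. For Ang II these shares were 2.33% or 0.232% lower and 4.12% or 0.332% higher. In migratory DC-like cells taken from clusters, Fabp5 in B6.SLE123 was at 0.97. The causes of these shifts were not tested. Depth limits Abca1 in every myeloid class, Lpl in nonclassical cells and every member in red pulp macrophage-like cells.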

Other observations

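Outside the myeloid gate, some members were counted in lymphocytes and neutrophils. Abca1, which was sparse in myeloid cells, was at 48.2, 47.8 and 26.7 CPM in B cell-like cells (control, Ang II and B6.SLE123, in this order throughout), from 1314, 1713 and 810 UMIs, and at 33.3, 23.2 and 26.3 CPM in NK cell-like cells. Cd36 was at 23.3, 22.9 and 17.5 CPM in B cell-like cells and had no UMI in NK cell-like cells. Fabp5 was at 3.27, 1.84 and 8.43 CPM in B cell-like cells and at 61.9, 39.5 and 39.0 CPM in neutrophil-like cells. In neutrophil-like cells Apoe was at 58.8, 28.8 and 3.77 CPM, from 77, 89 and 9 UMIs, and Fabp4 at 2.29, 0.648 and 26.8 CPM, from 3, 2 and 64 UMIs. Fabp4 had 0, 0 and 17 UMIs in NK cell-like cells, or 18.7 CPM in B6.SLE123, where the 17 UMIs came from 3 of 619 cells, or 0.485%. In neutrophil-like cells of that library, 29 of 697 (4.16%) had a UMI of Fabp4.

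In C1q DC-like cells, which only the B6.SLE123 library held in number, Fabp4 was at 779 CPM, Fabp5 at 342 CPM, Apoe at 293 CPM, Lpl at 24.4 CPM and Hpgd at 4.89 CPM. Of these 179 cells 144 carried hashtag C0303.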
